A study of Oryza sativa with 12 samples.

Results

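In rice roots, 66 of 182689 assembled transcript clusters (unigenes) were annotated as S-adenosylmethionine (SAM) synthetases or as enzymes named for ethylene synthesis. The rule that chose them used annotation only, but it was set with earlier results of these data known. The best hit in the NR protein database had to be from Oryza, as it was for 68051 unigenes. The NR or Swissprot description had to name an S-adenosylmethionine synthase or synthetase, a 1-aminocyclopropane-1-carboxylate synthase (ACC synthase), a 1-aminocyclopropane-1-carboxylate oxidase (ACC oxidase) or an acireductone dioxygenase. No expression value entered the rule itself.

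SAM synthetase joins methionine to ATP to make SAM. ACC synthase converts SAM to ACC, often the limiting step of ethylene synthesis, and ACC oxidase turns ACC into ethylene, a gaseous hormone that acts in root growth and in responses to salt and flooding. The by-product methylthioadenosine is recycled to methionine in the Yang cycle, in which acireductone dioxygenase acts. SAM is also used to build spermidine and nicotianamine, a metal chelator of grass roots, so these enzymes share a substrate with polyamine synthesis.

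Roots of wild-type rice (Oryza sativa) were held for 72 h with 0.1 mM spermidine and 100 mM NaCl together, with 100 mM NaCl, or with 0.1 mM spermidine, or were untreated. No time is stated for the untreated roots, and no cultivar is named. Each of the 4 groups had 3 libraries of poly-A RNA. The libraries are numbered without a statement of their origin in separate plants or cultures. P-values therefore cover only the scatter among these libraries, part or all of which may be technical. In a whole root, fewer cells of a type and less RNA per cell cannot be told apart.

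Levels are FPKM as deposited (fragments corrected for transcript length and for library size), so levels can be compared between unigenes per length. Differences were tested with limma on log2(FPKM + 1) over the 65836 unigenes averaging 1 FPKM or more, and a unigene was called at a Benjamini-Hochberg adjusted p below 0.05. The FPKM of a library summed to between 1312574 and 1371599, and 101814 to 125638 unigenes were above 0. Rice-hit unigenes held 80.4% to 81.6% of the FPKM in the NaCl libraries and 73.5% to 79.2% in the others. The part of this difference in the comparisons with NaCl was not tested. Replicate 1 of spermidine+NaCl stood nearer to the NaCl mean over rice-hit unigenes (r = 0.922) than replicates 2 and 3 did (r = 0.862 and 0.875).

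The root label was checked against the 41 unigenes of RCc3-type proteins and the silicon transporters Lsi1 and Lsi2, of which 36 to 41 were above 0 in a library. They summed to 8187 to 9146 FPKM with spermidine+NaCl, 7027 to 7312 FPKM with NaCl, 8700 to 9616 FPKM with spermidine and 9282 to 9835 FPKM in untreated roots. The 35 unigenes of shoot markers (Rubisco small chain and photosystem proteins) summed to 40.9 to 57.0 FPKM with spermidine+NaCl, 38.6 to 279 FPKM with NaCl, 36.6 to 164 FPKM with spermidine and 44.9 to 47.9 FPKM in untreated roots, with 20 to 35 of them above 0. The highest sums were in NaCl replicate 3 and spermidine replicate 1. The NaCl libraries thus had the lowest root marker sums and 1 of them the highest shoot marker sum. Single root markers went both ways. Of 35 that were tested, 6 were called higher and 13 lower with NaCl against untreated roots (median log2 change -0.03). Of all unigenes 10% were called higher and 12.9% lower. The part of either marker sum in the results that follow was not tested.

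Sorted by KEGG entry, the 66 unigenes comprised 6 SAM synthetases, 11 ACC synthases, 18 ACC oxidases and 7 acireductone dioxygenases. A further 22 were ACC oxidase homologs, other dioxygenases or unigenes without a KEGG entry. The name homolog is given for sequence similarity and does not state ACC oxidase activity. The last 2 were ribosomal protein P1. Several unigenes share an NR hit: the SAM synthetases had 3 distinct hits, the ACC synthases 8 and the ACC oxidases 11. Unigenes that share a hit may stand for the same gene and may split its reads, so they are not independent. A mean of at least 1 FPKM was reached by 46 members, comprising 5 SAM synthetases, 6 ACC synthases, 14 ACC oxidases, 5 acireductone dioxygenases, 15 homologs and 1 P1 unigene. The other 20 were not tested and reached at most 4.28 FPKM in any library.

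With NaCl against untreated roots, 11 members were called higher and 14 lower, 54.3% of the 46, against 22.9% of all unigenes tested (10% higher, 12.9% lower) and 27.1% of the rice-hit unigenes tested. With spermidine+NaCl against NaCl, 11 were called higher and 7 lower, 39.1% of members, against 15.8% of all unigenes (8.63% higher, 7.18% lower) and 19.3% of rice-hit unigenes. These comparisons share the NaCl libraries. At least 1 of the 6 comparisons called 31 of the 46 members.

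Spermidine alone against untreated roots called 0 members, against 2.55% of all unigenes (2.05% higher, 0.509% lower) and 0.294% of rice-hit unigenes. With spermidine+NaCl against untreated roots, 4 members were higher and 2 lower, 13% of members, against 5.37% of all unigenes (2.38% higher, 2.99% lower) and 4.54% of rice-hit unigenes. With spermidine+NaCl against spermidine, 5 were higher and 0 lower, 10.9% of members, against 6.93% of all unigenes (2.6% higher, 4.33% lower) and 5.28% of rice-hit unigenes. The interaction subtracts the effect of spermidine in the absence of salt from its effect in the presence of salt. It was called for 5 members with a positive and 5 with a negative value, 21.7% of members, against 10.9% of all unigenes (4.18% positive, 6.68% negative) and 12.1% of rice-hit unigenes. The members' median log2 change was -0.10 for NaCl against untreated roots and 0.28 for spermidine+NaCl against NaCl.

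Scaling bears on these directions. The median unigene of all those tested changed by -0.13 on the log2 scale with NaCl against untreated roots and by 0.14 with spermidine+NaCl against NaCl, and by 0.16 in the interaction. Median-ratio scaling brought these medians to -0.03, 0.0 and 0.00. Under it the members called were 15 higher and 10 lower with NaCl against untreated roots, 7 higher and 8 lower with spermidine+NaCl against NaCl, and 2 positive and 6 negative in the interaction. Without spermidine+NaCl replicate 1, the counts were 20 for spermidine+NaCl against NaCl, 7 against untreated roots, 6 against spermidine and 13 for the interaction. Without spermidine+NaCl replicate 2 they were 12, 0, 3 and 9 in the same order, and without replicate 3 they were 11, 1, 3 and 7.

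Summed over its members, SAM synthetase had the highest level of the 4 enzymes in every library. The 6 SAM synthetase unigenes summed to 4674, 4456 and 5466 FPKM with spermidine+NaCl, 3249, 3683 and 3388 FPKM with NaCl, 3981, 4410.0 and 4482 FPKM with spermidine, and 4278, 5118 and 5078 FPKM in untreated roots. Every NaCl library lay below every library of the other groups. The 7 acireductone dioxygenase unigenes had the same lowest group, at 249, 182 and 279.5 FPKM with spermidine+NaCl, 157, 157 and 152 FPKM with NaCl, 237, 242 and 237 FPKM with spermidine, and 195, 253 and 278 FPKM in untreated roots. With median-ratio scaling the SAM synthetase sum kept this separation, and the acireductone dioxygenase sum of NaCl replicate 1, at 174 FPKM, passed that of spermidine+NaCl replicate 2, at 171 FPKM.

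The ACC synthase sum ran the other way. Its 11 unigenes summed to 95.6, 66.3 and 82.2 FPKM with spermidine+NaCl, 177, 154 and 157 FPKM with NaCl, 87.2, 80.2 and 69.1 FPKM with spermidine, and 67.55, 86.4 and 68.1 FPKM in untreated roots. The NaCl libraries did not overlap with any other group. The 18 ACC oxidase unigenes summed to 505 ± 29.6 FPKM with spermidine+NaCl, 625 ± 79.3 FPKM with NaCl, 604 ± 81.9 FPKM with spermidine and 553 ± 48.8 FPKM in untreated roots (SD, n = 3 each), and the NaCl libraries overlapped with those of spermidine and of untreated roots.

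**Figure D1:**
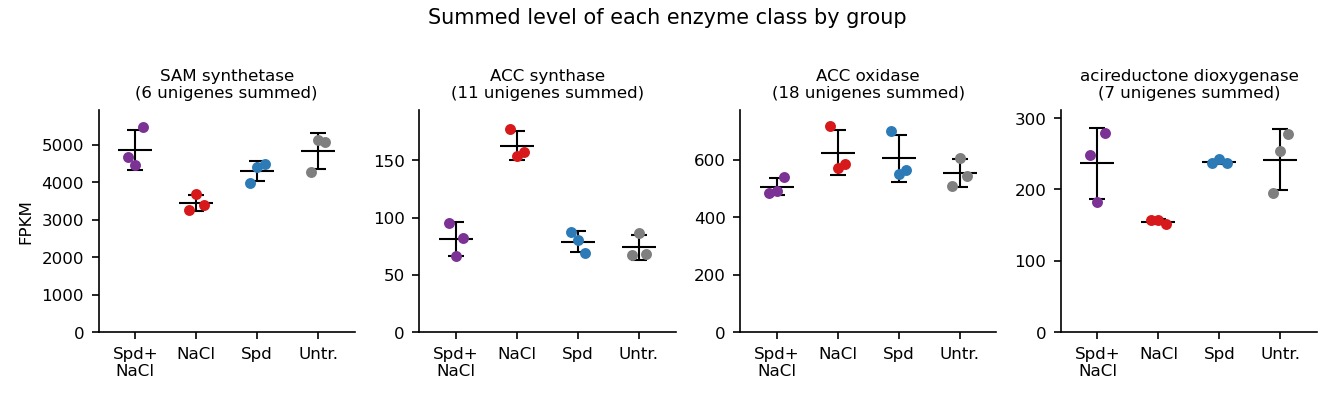
Summed FPKM (y axis, from 0) of the SAM synthetase, ACC synthase, ACC oxidase and acireductone dioxygenase unigenes in each group (x axis: Spd+NaCl, spermidine+NaCl; NaCl; Spd, spermidine; Untr., untreated). Points are libraries and bars the mean ± SD (n = 3). The NaCl group is lowest for SAM synthetase and acireductone dioxygenase and highest for ACC synthase, at 163 FPKM on average against 74.0 FPKM in untreated roots.

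**Figure D2:**
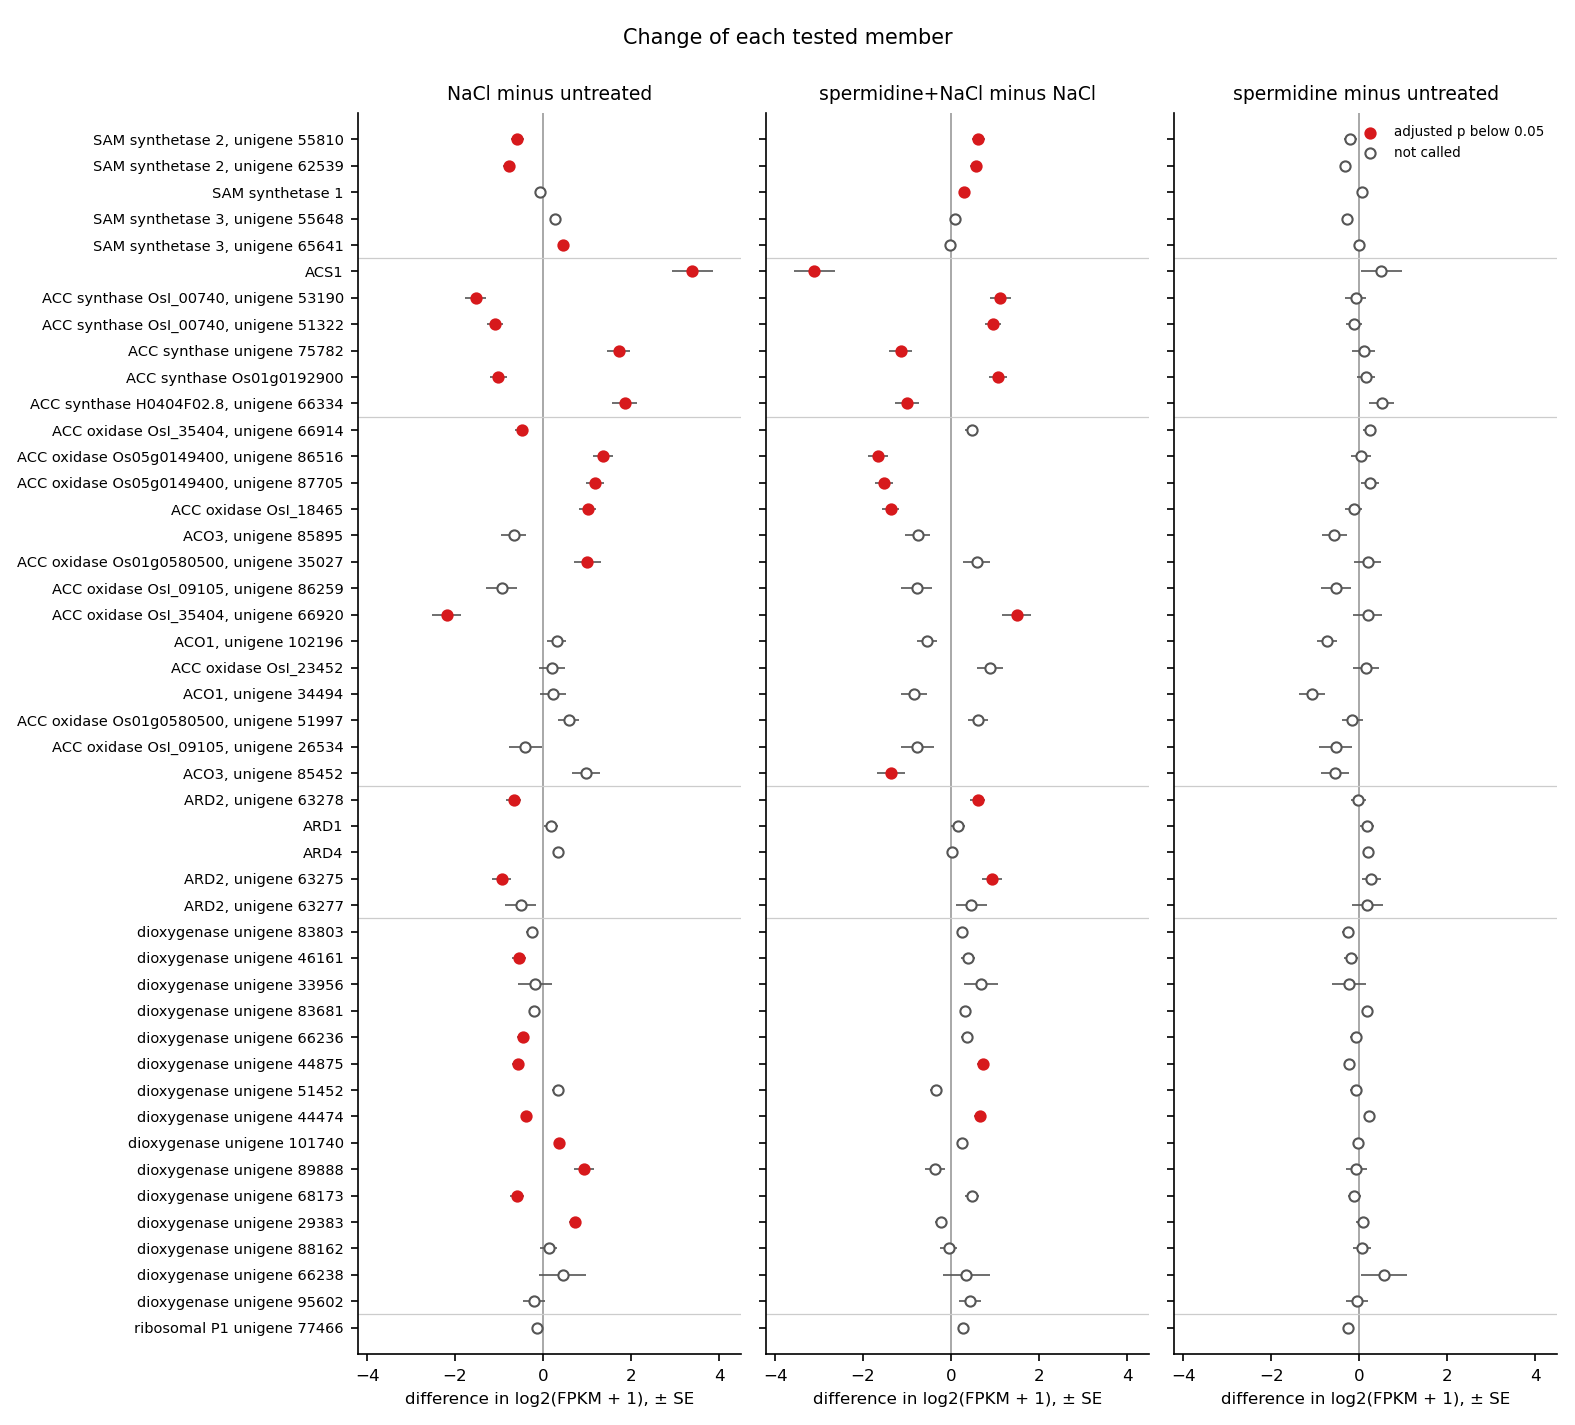
Change of each of the 46 tested members, as the difference in log2(FPKM + 1) ± SE (x axis) for NaCl minus untreated, spermidine+NaCl minus NaCl, and spermidine minus untreated. Filled points were called at an adjusted p below 0.05 over all unigenes. Grey lines separate the enzyme classes. From left to right, 25, 18 and 0 members were called. The shares called were 22.9%, 15.8% and 2.55% of all unigenes and 27.1%, 19.3% and 0.294% of rice-hit unigenes. The 0 is thus near the background share.

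Of the SAM synthetases, both SAM synthetase 2 unigenes fell with salt alone and 1 SAM synthetase 3 unigene rose, while 3 unigenes were higher with spermidine+NaCl than with NaCl. Each comparison thus called 60% of the 5 tested, against 22.9% and 15.8% of all unigenes and 27.1% and 19.3% of rice-hit unigenes. SAM synthetase 2 unigene 55810, the most abundant member, stood at 1742, 1709 and 2316 FPKM with spermidine+NaCl, 1149, 1346 and 1236 FPKM with NaCl, 1529, 1656 and 1686 FPKM with spermidine, and 1506, 2154 and 2013 FPKM in untreated roots. The NaCl libraries were all below those of the other groups. It fell by 0.59 ± 0.15 on the log2 scale with NaCl against untreated roots (adjusted p = 0.016) and was higher by 0.62 ± 0.15 with spermidine+NaCl than with NaCl (adjusted p = 0.0189).

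The other SAM synthetase 2 unigene, 62539, gave 1414, 1224 and 1683 FPKM with spermidine+NaCl, 867, 1039.9 and 983 FPKM with NaCl, 1222, 1417 and 1366 FPKM with spermidine, and 1438, 1725 and 1815 FPKM in untreated roots. Again no NaCl library reached any library of another group. The log2 change was -0.78 ± 0.13 with NaCl against untreated roots (adjusted p = 0.00168), a 1.72-fold difference in means, and 0.57 ± 0.13 with spermidine+NaCl against NaCl (adjusted p = 0.0143). The interaction was called for both unigenes, at 0.82 ± 0.21 (adjusted p = 0.0326) for 55810 and 0.88 ± 0.18 (adjusted p = 0.0129) for 62539.

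SAM synthetase 1 differed little between groups, at 1469.9, 1472 and 1414 FPKM with spermidine+NaCl, 1187, 1246 and 1119 FPKM with NaCl, 1195, 1302 and 1397 FPKM with spermidine, and 1297, 1204 and 1206 FPKM in untreated roots. The spermidine+NaCl libraries were above all others, by 0.30 ± 0.07 on the log2 scale against NaCl (adjusted p = 0.0181). Its change with NaCl against untreated roots was -0.06 ± 0.07 (adjusted p = 0.599), and 0.07 with median-ratio scaling.

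SAM synthetase 3 was far less abundant. Its unigene 65641 had 20.5, 23.1 and 25.2 FPKM with spermidine+NaCl, 22.1, 25.5 and 22.5 FPKM with NaCl, 16.6, 16.9 and 16.6 FPKM with spermidine, and 16.5, 15.7 and 18.5 FPKM in untreated roots. Both groups with salt lay above both groups without it. It rose by 0.45 ± 0.10 on the log2 scale with NaCl against untreated roots (adjusted p = 0.00845), where the SAM synthetase 2 unigenes fell. With spermidine+NaCl it was also higher than with spermidine (0.43 ± 0.10, adjusted p = 0.0278) and than in untreated roots (0.42 ± 0.10, adjusted p = 0.0378). Unigene 55648 was called against spermidine only, at 26.5 ± 0.46 FPKM with spermidine+NaCl and 16.6 ± 1.0 FPKM with spermidine (SD, n = 3 each; log2 change 0.64 ± 0.12, adjusted p = 0.00848).

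The SAM synthetase differences between spermidine+NaCl and NaCl depended on scaling, on the groups fitted and on single libraries. In a fit of the 2 compared groups alone, the adjusted p was 0.246 for 55810, 0.191 for 62539 and 0.432 for SAM synthetase 1. That fit also lost the falls of 55810 and 62539 with NaCl against untreated roots (adjusted p = 0.229 and 0.0746), and the calls of 65641 with spermidine+NaCl against spermidine (0.0763) and against untreated roots (0.129). With median-ratio scaling the adjusted p was 0.0765 for 55810, 0.0621 for 62539 and 0.366 for SAM synthetase 1, and the 55810 interaction was lost (adjusted p = 0.0923). Without NaCl replicate 1 the 3 adjusted p-values were 0.08, 0.0666 and 0.062. Without NaCl replicate 3 those of 55810 and SAM synthetase 1 were 0.0623 and 0.083, without spermidine+NaCl replicate 3 those of 55810 and 62539 were 0.068 and 0.0541, and without spermidine+NaCl replicate 2 that of SAM synthetase 1 was 0.0816. The fall of 55810 with NaCl was lost with quantile normalization (adjusted p = 0.138). It was also lost, with adjusted p-values of 0.0507 to 0.0734, without NaCl replicate 1 or 3 or untreated replicate 2 or 3. Those of 62539 and of unigene 65641 with NaCl against untreated roots were kept whichever library was left out. The interaction of 55810 was lost (adjusted p 0.0606 to 0.0925) without any 1 of 8 libraries, which were all but NaCl replicate 2, spermidine+NaCl replicates 1 and 2 and untreated replicate 1. The calls of 65641 with spermidine+NaCl were lost against spermidine (adjusted p 0.0621 to 0.0944) without spermidine replicate 1 or 3 or spermidine+NaCl replicate 2 or 3. Against untreated roots its call was lost (adjusted p 0.0542 to 0.113) without untreated replicate 1 or 2, NaCl replicate 3 or spermidine+NaCl replicate 2 or 3.

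**Figure D3:**
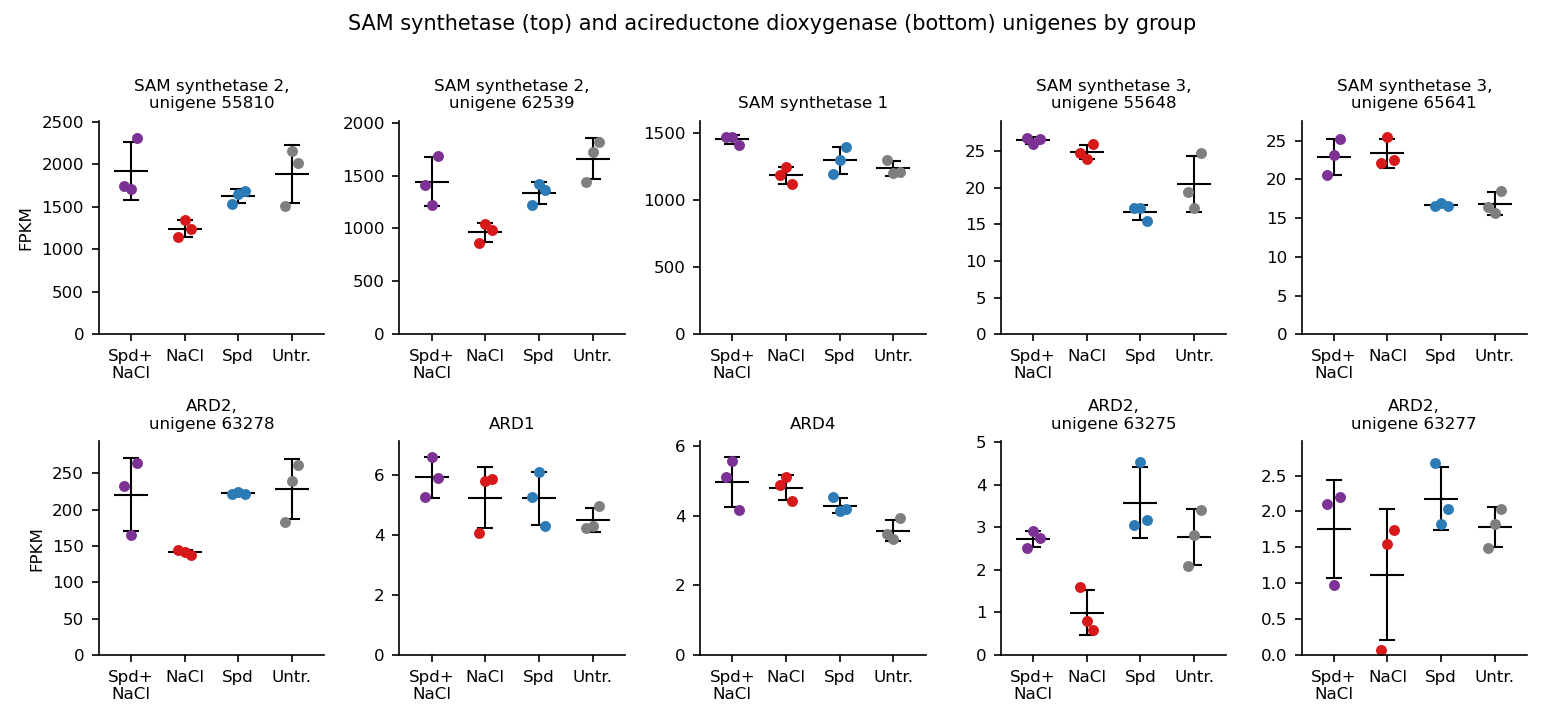
FPKM (y axis, from 0) of the 5 tested SAM synthetase unigenes (top) and the 5 tested acireductone dioxygenase unigenes (bottom) by group (x axis, abbreviated as Spd+NaCl, NaCl, Spd and Untr.). Points are libraries and bars the mean ± SD (n = 3). The NaCl libraries are lowest for the SAM synthetase 2 unigenes and for ARD2 unigene 63278, at 142 FPKM on average against 228 FPKM in untreated roots.

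ACC synthases divided into unigenes that rose with salt alone and unigenes that fell. All 6 tested members were called with NaCl against untreated roots, 3 higher and 3 lower. All 6 were also called with spermidine+NaCl against NaCl, 3 higher and 3 lower. Of all unigenes 22.9% and 15.8% were called in these comparisons, and of rice-hit unigenes 27.1% and 19.3%. The higher and lower sets of these comparisons are set side by side in what follows, since both use the NaCl libraries.

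ACS1 (unigene 86852) showed the widest range. It stood at 25.8, 5.58 and 5.76 FPKM with spermidine+NaCl, 103, 84.4 and 85.1 FPKM with NaCl, 13.4, 14.7 and 7.39 FPKM with spermidine, and 9.15, 7.52 and 6.66 FPKM in untreated roots. Each NaCl library was above every library of the other groups, and spermidine+NaCl replicate 1 was well above replicates 2 and 3. The mean was 11.7-fold higher with NaCl than in untreated roots (log2 change 3.39 ± 0.47, adjusted p = 0.000545). It was 7.33-fold lower with spermidine+NaCl than with NaCl (log2 change -3.11 ± 0.47, adjusted p = 0.00151), and the interaction was -3.61 ± 0.66 (adjusted p = 0.00698). These 3 calls were kept in every alternative tried. Without spermidine+NaCl replicate 1 the change against NaCl was -3.78 and the interaction -4.28 (adjusted p = 2.31e-05 and 0.000108).

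A pair of ACC synthases with Swissprot hits to the soybean and tobacco enzymes was also higher with salt alone. Unigene 75782 gave 18.4, 7.67 and 9.62 FPKM with spermidine+NaCl, 26.7, 23.9 and 27.0 FPKM with NaCl, 7.82, 9.70 and 6.06 FPKM with spermidine, and 7.68, 7.32 and 6.46 FPKM in untreated roots. Unigene 66334 (NR hit H0404F02.8) gave 13.5, 5.27 and 8.08 FPKM with spermidine+NaCl, 21.1, 15.5 and 17.0 FPKM with NaCl, 7.06, 7.05 and 5.22 FPKM with spermidine, and 3.38, 5.37 and 4.0 FPKM in untreated roots. As for ACS1, the NaCl libraries were the highest and spermidine+NaCl replicate 1 came next.

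Unigene 75782 rose by 1.72 ± 0.26 on the log2 scale with NaCl against untreated roots (adjusted p = 0.00092), and unigene 66334 by 1.85 ± 0.27 (adjusted p = 0.000838). With spermidine+NaCl against NaCl they were lower, with log2 changes of -1.15 ± 0.26 (adjusted p = 0.0141) and -0.999 ± 0.275 (adjusted p = 0.0337). Without spermidine+NaCl replicate 1 these became -1.48 and -1.31. When the 2 groups were fitted alone, neither was called against NaCl (adjusted p = 0.0939 and 0.139). The difference between spermidine+NaCl and NaCl lost its call for 75782 (adjusted p 0.0513 to 0.0561) without NaCl replicate 1 or 3 or spermidine+NaCl replicate 2 or 3. For 66334 it was lost (adjusted p 0.0505 to 0.123) without any 1 of the NaCl libraries, spermidine+NaCl replicate 2 or 3, untreated replicate 3 or spermidine replicate 1. The interaction of 66334 was -1.51 ± 0.39 (adjusted p = 0.0335) and was lost (adjusted p 0.056 to 0.0873) without any 1 of 8 libraries, which were all but NaCl replicate 2, spermidine replicate 3, spermidine+NaCl replicate 1 and untreated replicate 2.

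The 3 ACC synthases that were lower with salt alone have Swissprot hits to the Arabidopsis ACC synthase 7. Unigene 53190 (OsI_00740) gave 12.6, 17.6 and 23.2 FPKM with spermidine+NaCl, 10.2, 5.75 and 6.90 FPKM with NaCl, 25.4, 21.8 and 19.6 FPKM with spermidine, and 20.1, 27.4 and 23.2 FPKM in untreated roots. Unigene 51322, with the same NR hit, gave 13.6, 16.5 and 23.4 FPKM with spermidine+NaCl, 7.69, 9.08 and 8.63 FPKM with NaCl, 19.3, 16.9 and 16.7 FPKM with spermidine, and 18.1, 22.95 and 17.0 FPKM in untreated roots. The NaCl libraries were the lowest of both, without overlap. The third, Os01g0192900, gave 9.74, 12.3 and 11.5 FPKM with spermidine+NaCl, 4.82, 5.26 and 4.32 FPKM with NaCl, 13.8, 9.55 and 13.4 FPKM with spermidine, and 7.99, 14.2 and 10.8 FPKM in untreated roots. It too had its 3 lowest values in the NaCl libraries.

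The log2 changes with NaCl against untreated roots were -1.53 ± 0.24 for 53190 (adjusted p = 0.00106), -1.10 ± 0.18 for 51322 (adjusted p = 0.00155) and -1.02 ± 0.20 for Os01g0192900 (adjusted p = 0.00405). With spermidine+NaCl against NaCl they were 1.12 ± 0.24 (adjusted p = 0.00987), 0.96 ± 0.18 (adjusted p = 0.00513) and 1.07 ± 0.20 (adjusted p = 0.00484) in the same order. When the 2 groups were fitted alone, the calls of 53190 and 51322 with spermidine+NaCl against NaCl were lost (adjusted p = 0.0829 and 0.0541). None of the 6 calls was lost without a single library or with another scaling. The interaction was called for 51322 at 1.08 ± 0.25 (adjusted p = 0.0225) and for 53190 at 1.19 ± 0.33 (adjusted p = 0.0467). With median-ratio scaling both were lost (adjusted p = 0.0507 and 0.113). The interaction of 51322 was also lost (adjusted p 0.0502 to 0.0603) without NaCl replicate 1, spermidine replicate 3 or untreated replicate 2, and that of 53190 (adjusted p 0.0638 to 0.101) without any 1 library other than NaCl replicate 1 and spermidine+NaCl replicate 1.

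Against untreated roots, no ACC synthase was called with spermidine+NaCl or with spermidine alone. The log2 changes with spermidine+NaCl ran from -0.41 ± 0.24 for 53190 to 0.85 ± 0.27 for 66334, whose adjusted p of 0.115 was the lowest. The 5 ACC synthase unigenes that were not tested, 4 of them annotated as ACS3, reached at most 4.28 FPKM in any library. Singled out after its values were seen, ACS3 unigene 12169 was at 0.91, 3.77 and 0.98 FPKM with NaCl and was listed at 0 in the other 9 libraries.

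**Figure D4:**
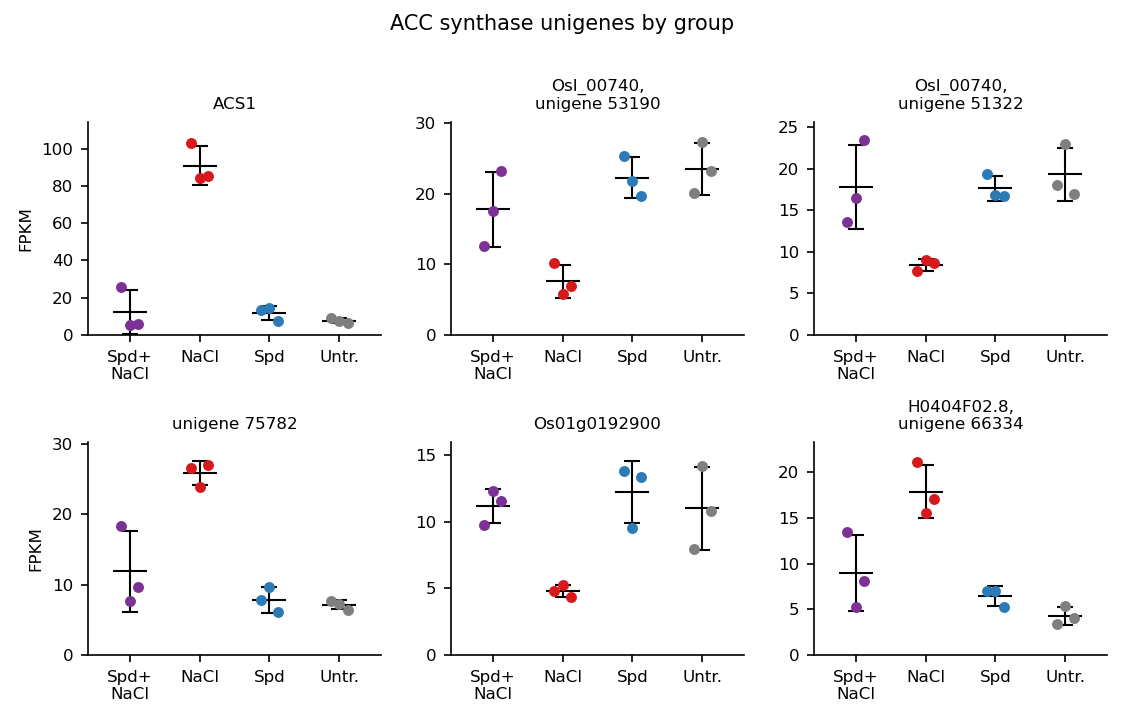
FPKM (y axis, from 0) of the 6 tested ACC synthase unigenes by group (x axis, abbreviated as Spd+NaCl, NaCl, Spd and Untr.). Points are libraries and bars the mean ± SD (n = 3). ACS1, unigene 75782 and unigene 66334 are highest with NaCl, and unigenes 53190 and 51322 and Os01g0192900 are lowest with NaCl.

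ACC oxidases also moved in both directions. With NaCl against untreated roots, 4 of the 14 tested were called higher and 2 lower, and with spermidine+NaCl against NaCl 1 was higher and 4 were lower. The shares called were 42.9% and 35.7%, against 22.9% and 15.8% of all unigenes and 27.1% and 19.3% of rice-hit unigenes. Some of these unigenes share an NR hit, so the counts are not of separate genes. The most abundant, unigene 66914 (OsI_35404), fell slightly with salt alone, and 3 unigenes of the next highest level rose.

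Unigene 66914 gave 299, 345 and 378 FPKM with spermidine+NaCl, 285, 235 and 219 FPKM with NaCl, 459.5, 358 and 403 FPKM with spermidine, and 292, 405 and 342 FPKM in untreated roots. The NaCl libraries were all below the others. Its log2 change with NaCl was -0.48 ± 0.15 (adjusted p = 0.04), and it was lost with median-ratio scaling (adjusted p = 0.157) and when the 2 groups were fitted alone (adjusted p = 0.117). It was also lost (adjusted p 0.0618 to 0.143) without NaCl replicate 2 or 3, untreated replicate 2 or 3, spermidine replicate 3 or spermidine+NaCl replicate 2. Unigene 66920, with the same NR hit, had a larger difference at a lower level, with 3.0, 8.22 and 7.62 FPKM with spermidine+NaCl, 1.32, 1.37 and 1.57 FPKM with NaCl, 12.5, 8.19 and 15.2 FPKM with spermidine, and 7.23, 13.1 and 10.52 FPKM in untreated roots. Every NaCl library was below all others. It was 7.24-fold lower with NaCl than in untreated roots (log2 change -2.19 ± 0.33, adjusted p = 0.000935) and higher with spermidine+NaCl than with NaCl (log2 change 1.497 ± 0.330, adjusted p = 0.0124). This higher level was no longer called without spermidine+NaCl replicate 2 or 3 (adjusted p = 0.0576 and 0.0528) or when the 2 groups were fitted alone (adjusted p = 0.0725).

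The 3 ACC oxidase unigenes that were higher with salt alone, and lower with spermidine+NaCl than with NaCl, have Swissprot hits to the same banana enzyme, as have 66914 and 66920. Unigene 86516 (Os05g0149400) gave 72.6, 47.2 and 49.9 FPKM with spermidine+NaCl, 216, 138 and 190.4 FPKM with NaCl, 89.5, 75.9 and 52.7 FPKM with spermidine, and 64.35, 68.2 and 72.7 FPKM in untreated roots. Unigene 87705, also assigned to Os05g0149400, gave 40.1, 30.6 and 26.3 FPKM with spermidine+NaCl, 99.4, 95.8 and 84.2 FPKM with NaCl, 62.4, 47.0 and 38.9 FPKM with spermidine, and 48.0, 43.4 and 32.3 FPKM in untreated roots. In both, the NaCl libraries stood apart from the other 9. OsI_18465 (unigene 87706) averaged 15.0 ± 2.0 FPKM with spermidine+NaCl, 40.4 ± 3.2 FPKM with NaCl, 18.3 ± 5.8 FPKM with spermidine and 19.5 ± 2.5 FPKM in untreated roots (SD, n = 3 each).

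For NaCl against untreated roots the log2 changes were 1.37 ± 0.23 for 86516 (adjusted p = 0.00166), 1.17 ± 0.21 for 87705 (adjusted p = 0.00234) and 1.02 ± 0.19 for OsI_18465 (adjusted p = 0.00383). With spermidine+NaCl against NaCl they were -1.67 ± 0.23 (adjusted p = 0.000827), -1.52 ± 0.21 (adjusted p = 0.000805) and -1.37 ± 0.19 (adjusted p = 0.00105). The interactions were -1.72 ± 0.32 (adjusted p = 0.00761), -1.76 ± 0.29 (adjusted p = 0.00405) and -1.25 ± 0.28 (adjusted p = 0.0168). These 9 calls were kept in every alternative tried.

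ACO3 and the unigenes named for OsI_09105, which share an NR hit, had 2 unigenes called lower with spermidine+NaCl than in untreated roots. ACO3 unigene 85895 gave 6.36, 5.26 and 5.13 FPKM with spermidine+NaCl, 13.4, 9.21 and 8.36 FPKM with NaCl, 15.8, 9.36 and 8.70 FPKM with spermidine, and 25.4, 13.9 and 12.9 FPKM in untreated roots. The spermidine+NaCl libraries did not overlap with those of any other group. Against untreated roots it fell by 1.43 ± 0.28 on the log2 scale with spermidine+NaCl (adjusted p = 0.0188). Unigene 86259 gave 4.38, 1.74 and 3.38 FPKM with spermidine+NaCl and 20.7, 10.2 and 8.51 FPKM in untreated roots, a log2 change of -1.72 ± 0.35 (adjusted p = 0.0212). Within every group replicate 1 was the highest library of both, and untreated replicate 1 was the highest of all. Without it the adjusted p-values were 0.0623 and 0.0721, and without spermidine+NaCl replicate 2 or 3 they were 0.075 and 0.0604 for 85895 and 0.0841 and 0.052 for 86259, whose call also ended without untreated replicate 2 (adjusted p = 0.0511). When the 2 groups were fitted alone they were 0.0898 for 85895 and 0.139 for 86259. With replicate number added to the fit as a block, both were also called lower in comparisons not called in the main fit. The adjusted p-values of 85895 and 86259 were then 0.00994 and 0.0149 with NaCl against untreated roots. They were 0.00809 and 0.0411 with spermidine+NaCl against NaCl, and 0.0104 and 0.0149 with spermidine+NaCl against spermidine.

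ACO3 unigene 85452 was called in another comparison. It gave 1.43, 1.47 and 2.01 FPKM with spermidine+NaCl and 6.12, 4.42 and 6.98 FPKM with NaCl, a log2 change of -1.36 ± 0.32 (adjusted p = 0.0166). The call was lost without NaCl replicate 1 or 3 or spermidine+NaCl replicate 2 (adjusted p 0.0616 to 0.0679).

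Os01g0580500 had its highest levels with spermidine+NaCl. Its unigene 35027 gave 13.0, 14.1 and 17.3 FPKM with spermidine+NaCl, 11.7, 8.99 and 8.01 FPKM with NaCl, 2.66, 6.93 and 6.28 FPKM with spermidine, and 2.82, 6.03 and 4.21 FPKM in untreated roots. The 4 groups had no overlap other than between spermidine and untreated roots. With spermidine+NaCl it was 3.4-fold higher than in untreated roots (log2 change 1.60 ± 0.31, adjusted p = 0.0163) and 2.8-fold higher than with spermidine (1.40 ± 0.31, adjusted p = 0.022). With NaCl against untreated roots it rose by 1.01 ± 0.31 (adjusted p = 0.0373), and the difference of 0.58 ± 0.31 between spermidine+NaCl and NaCl was not called (adjusted p = 0.239). Unigene 51997, with the same assignment, averaged 6.61 ± 0.39 FPKM with spermidine+NaCl, 4.05 ± 1.1 FPKM with NaCl, 2.04 ± 0.81 FPKM with spermidine and 2.38 ± 0.82 FPKM in untreated roots (SD, n = 3 each). Its log2 changes with spermidine+NaCl were 1.198 ± 0.237 against untreated roots (adjusted p = 0.0182) and 1.35 ± 0.24 against spermidine (adjusted p = 0.00714).

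The calls of Os01g0580500 against untreated roots rested on single libraries. With spermidine+NaCl they were lost without untreated replicate 1 (adjusted p = 0.0714 for 35027 and 0.077 for 51997), without spermidine+NaCl replicate 2 (both 0.0608) or 3 (0.0569 and 0.058), and for 51997 without untreated replicate 2 (0.0615). Against spermidine, 35027 lost its call without spermidine replicate 1 or spermidine+NaCl replicate 2 or 3 (adjusted p 0.0576 to 0.0842). Its rise with NaCl was lost (adjusted p 0.0502 to 0.141) without any 1 NaCl or spermidine+NaCl library or untreated replicate 1 or 3. When the 2 groups were fitted alone, none of the calls of either unigene was kept (adjusted p 0.0606 to 0.121).

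The remaining tested ACC oxidases passed no test. ACO1 unigene 34494 had the lowest adjusted p of any member in spermidine alone against untreated roots, with 1.73, 2.94 and 1.98 FPKM with spermidine and 3.32, 5.23 and 9.85 FPKM in untreated roots (log2 change -1.06 ± 0.29, adjusted p = 0.117). The libraries did not overlap. The other ACO1 unigene, 102196, averaged 4.26 ± 0.92 FPKM with spermidine and 7.85 ± 2.7 FPKM in untreated roots (SD, n = 3 each; adjusted p = 0.173). OsI_23452 gave 8.13, 9.85 and 10.6 FPKM with spermidine+NaCl and 5.31, 5.59 and 3.43 FPKM with NaCl (log2 change 0.88 ± 0.30, adjusted p = 0.073).

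**Figure D5:**
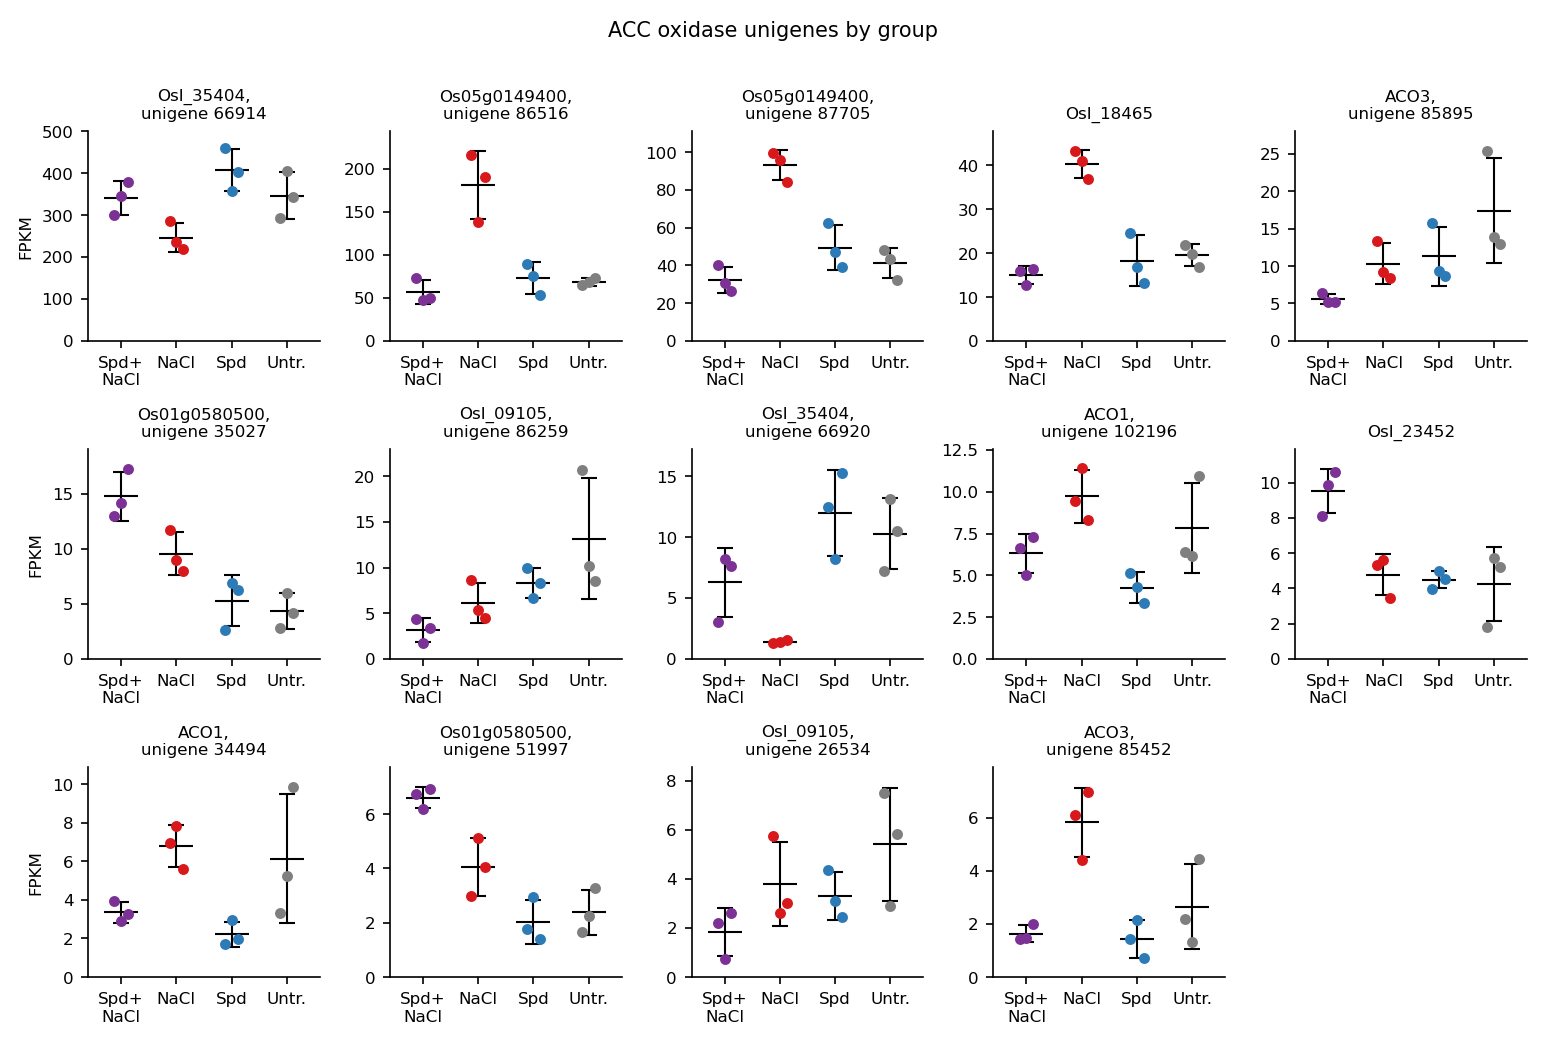
FPKM (y axis, from 0) of the 14 tested ACC oxidase unigenes by group, in order of mean level (x axis, abbreviated as Spd+NaCl, NaCl, Spd and Untr.). Points are libraries and bars the mean ± SD (n = 3). Unigenes 86516, 87705 and OsI_18465 are highest with NaCl, unigene 66920 is lowest with NaCl, and the Os01g0580500 unigenes are highest with spermidine+NaCl.

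Acireductone dioxygenase 2 (ARD2), the main unigene of the Yang cycle enzyme, fell with salt alone. Its unigene 63278 gave 233, 165 and 264 FPKM with spermidine+NaCl, 144, 142 and 138 FPKM with NaCl, 221, 225 and 222 FPKM with spermidine, and 183, 239.9 and 262 FPKM in untreated roots. The NaCl libraries were all lower than the rest, and the spread was widest with spermidine+NaCl. The log2 change was -0.67 ± 0.17 with NaCl against untreated roots (adjusted p = 0.0153) and 0.61 ± 0.17 with spermidine+NaCl against NaCl (adjusted p = 0.0328). Unigene 63275, also ARD2, averaged 2.73 ± 0.20 FPKM with spermidine+NaCl, 0.993 ± 0.53 FPKM with NaCl, 3.59 ± 0.83 FPKM with spermidine and 2.77 ± 0.66 FPKM in untreated roots (SD, n = 3 each). It was called in the same comparisons, at -0.94 ± 0.22 (adjusted p = 0.0113) and 0.93 ± 0.22 (adjusted p = 0.0168).

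The difference of ARD2 unigene 63278 between spermidine+NaCl and NaCl was lost with median-ratio scaling (adjusted p = 0.142) and when the 2 groups were fitted alone (adjusted p = 0.112), in which 63275 lost both of its calls (adjusted p = 0.0648 and 0.0638). It was also lost (adjusted p 0.0505 to 0.116) without any 1 NaCl library, spermidine+NaCl replicate 1 or 3, spermidine replicate 1 or 3 or untreated replicate 2. Its fall with NaCl was lost (adjusted p 0.0501 to 0.0607) without NaCl replicate 3 or untreated replicate 2 or 3. That of 63275 against NaCl was lost (adjusted p 0.0501 to 0.0648) without NaCl replicate 2 or 3 or spermidine+NaCl replicate 2 or 3. ARD1 and ARD4 lay between 3.34 and 6.59 FPKM in every library and passed no test, and ARD2 unigene 63277, at most 2.68 FPKM in any library, passed none either. ARD3 and ARD2 unigene 63276 were below the limit for testing.

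Where the homologs and other dioxygenases have a KEGG entry, it names enzymes such as gibberellin 2-oxidase, DIBOA-glucoside dioxygenase and salicylic acid 3-hydroxylase. Unigene 33956 has no KEGG, Swissprot or Pfam entry, and its NR name, ACC oxidase homolog 4, is also that of the ribosomal P1 unigene 77466. Unigenes 41402 and 66238 likewise have an NR name alone, that of an ACC oxidase. For unigenes with an NR name alone, the word dioxygenase in the plot of changes is only the name of the class. With NaCl against untreated roots, 3 of the 15 tested were called higher and 5 lower, and with spermidine+NaCl against NaCl 2 were higher and 0 lower. The share called was 53.3% in the first of these comparisons, against 22.9% of all unigenes, and 13.3% in the second, against 15.8% of all and 19.3% of rice-hit unigenes. The second share is near the background. Unigene 44875 gave 10.7, 13.8 and 12.6 FPKM with spermidine+NaCl, 7.99, 6.15 and 7.15 FPKM with NaCl, 8.88, 9.76 and 9.18 FPKM with spermidine, and 9.58, 11.3 and 12.1 FPKM in untreated roots. The NaCl libraries were the lowest. Its log2 changes were -0.57 ± 0.13 with NaCl against untreated roots (adjusted p = 0.00948), 0.72 ± 0.13 with spermidine+NaCl against NaCl (adjusted p = 0.00413) and 0.94 ± 0.18 in the interaction (adjusted p = 0.00922), and these 3 calls were kept in every alternative tried.

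Of the other homologs, unigene 29383 rose with NaCl to 4.93 ± 0.43 FPKM, against 2.57 ± 0.15 FPKM in untreated roots (SD, n = 3 each; log2 change 0.73 ± 0.14, adjusted p = 0.00405), in every alternative tried. Unigene 44474 was higher with spermidine+NaCl, at 7.72 ± 0.85 FPKM, than with NaCl, at 4.54 ± 0.046 FPKM (SD, n = 3 each; log2 change 0.65 ± 0.12, adjusted p = 0.0045), also in every alternative tried. The other 7 calls of homologs with NaCl against untreated roots or with spermidine+NaCl against untreated roots were between -0.59 and 0.93 on the log2 scale, and each was lost without at least 1 library, at adjusted p-values up to 0.127. Unigene 101740 was also higher with spermidine+NaCl than with spermidine (0.65 ± 0.12, adjusted p = 0.00824). This call was lost when the 2 groups were fitted alone (adjusted p = 0.096).

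Unigene 77466, the most abundant of the ribosomal protein P1 unigenes, is a member because its NR hit is named ACC oxidase homolog 4. Its Swissprot and KEGG entries name the acidic ribosomal protein P1, a protein of the ribosomal stalk. It gave 472, 429 and 426 FPKM with spermidine+NaCl, 365, 359 and 376 FPKM with NaCl, 318, 392 and 311 FPKM with spermidine, and 389, 360.0 and 462 FPKM in untreated roots. No test called it, and it enters no sum of the ethylene enzymes.

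With spermidine alone, limma called 0 of the 46 members, with a lowest adjusted p of 0.117. It called 2.55% of all unigenes and 0.294% of rice-hit unigenes, so the 0 is near the background share. An unadjusted p below 0.05 was found for 5 members. The share of all unigenes under that unadjusted limit was not computed, so the 5 are no result about the members. The log2 changes ran from -1.06 for ACO1 unigene 34494 to 0.57 for unigene 66238, whose SE was 0.53. Besides the ACO1 unigenes, those under an unadjusted p of 0.05 were SAM synthetase 2 unigene 62539 (-0.31), SAM synthetase 3 unigene 55648 (-0.27) and the P1 unigene 77466 (-0.24), all lower with spermidine. ACS1 changed by 0.51 ± 0.47 (adjusted p = 0.726), with overlapping libraries.

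Other genes of the pathway were taken from lists of protein descriptions. Unlike those of the members, their calls were not checked under other scalings or without single libraries. Of 17 tested Yang cycle unigenes outside acireductone dioxygenase, 0 were called higher and 7 lower with NaCl against untreated roots (median log2 change -0.59), and 5 were higher and 0 lower with spermidine+NaCl against NaCl (median 0.54). Over all unigenes, 10% were called higher and 12.9% lower in the first comparison, and 8.63% higher and 7.18% lower in the second, and the counts of each list that follows stand against these shares. Methylthioribose-1-phosphate isomerase (unigene 68572) gave 71.4, 56.1 and 83.4 FPKM with spermidine+NaCl and 43.4, 46.7 and 41.3 FPKM with NaCl (log2 change 0.65 ± 0.14, adjusted p = 0.0122). Methylthioribose kinase (unigene 67539) fell to 2.36 FPKM on average with NaCl, against 7.85 FPKM in untreated roots (log2 change -1.62, adjusted p = 0.0298).

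For methionine supply and the recycling of S-adenosylhomocysteine, 16 unigenes were tested, and 7 were called higher and 2 lower with NaCl against untreated roots. A pair described as cystathionine gamma-synthase, an enzyme of methionine synthesis, stood above 1.07 FPKM only in the NaCl libraries. Unigene 41120 gave 1.07, 0 and 0.09 FPKM with spermidine+NaCl, 103, 57.7 and 66.3 FPKM with NaCl, 0.6, 0.59 and 0 FPKM with spermidine, and 0.06, 0 and 0 FPKM in untreated roots. Unigene 41119 gave 62.6, 38.0 and 43.3 FPKM with NaCl and at most 0.1 FPKM elsewhere. The adjusted p-values were 2.35e-06 and 6.58e-07 with NaCl against untreated roots, and with spermidine+NaCl against NaCl 5.41e-06 and 1.29e-06. Both unigenes passed the filter of 1 FPKM only through the NaCl libraries. These p-values are therefore no separate support for the high level there.

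Adenosylhomocysteinase, which recycles the product of SAM-dependent methylation, was the most abundant unigene of that list (67270). It averaged 694 FPKM with spermidine+NaCl, 608 FPKM with NaCl, 461 FPKM with spermidine and 484 FPKM in untreated roots. It was higher with spermidine+NaCl than with spermidine (log2 change 0.60, adjusted p = 0.00668) and than in untreated roots (0.52, adjusted p = 0.0185). A methionine synthase (unigene 74481) was higher in the same comparisons (0.52 and 0.50, adjusted p = 0.0079 and 0.0146).

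Among the other users of SAM, 16 unigenes were tested, of which 3 were called higher and 5 lower with NaCl against untreated roots. SAM decarboxylase, which commits SAM to polyamine synthesis, was higher with NaCl, with unigene 83884 at 127, 63.0 and 75.0 FPKM with spermidine+NaCl, 292, 274 and 258 FPKM with NaCl, 92.9, 88.2 and 73.8 FPKM with spermidine, and 65.8, 72.9 and 63.7 FPKM in untreated roots. The NaCl libraries did not overlap with the rest (log2 change 2.01 against untreated roots, adjusted p = 9.35e-05, and -1.69 with spermidine+NaCl against NaCl, adjusted p = 0.000457). Nicotianamine synthase 1 (unigene 77540), at levels like those of the SAM synthetases, gave 3159, 2225 and 4454 FPKM with spermidine+NaCl, 1739, 1898 and 1686 FPKM with NaCl, 3404, 3573 and 3538 FPKM with spermidine, and 2462, 4666 and 4478 FPKM in untreated roots. It fell by 1.07 on the log2 scale with NaCl against untreated roots (adjusted p = 0.0152).

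Arabidopsis ETO1 marks ACC synthase for breakdown. Of 7 tested unigenes like it, 3 rose and 0 fell with NaCl against untreated roots, while 0 were higher and 3 lower with spermidine+NaCl against NaCl. Unigene 56611 gave 34.3, 36.7 and 36.0 FPKM with spermidine+NaCl, 51.6, 49.8 and 49.2 FPKM with NaCl, 30.7, 32.9 and 36.9 FPKM with spermidine, and 27.1, 34.8 and 29.8 FPKM in untreated roots. The log2 changes were 0.71 with NaCl against untreated roots (adjusted p = 0.000619) and -0.48 with spermidine+NaCl against NaCl (adjusted p = 0.00889).

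Of 42 tested unigenes of ethylene receptors and signalling, 7 were called higher and 8 lower with NaCl against untreated roots, and 2 higher and 6 lower with spermidine+NaCl against NaCl. Of all unigenes, 22.9% and 15.8% were called in these comparisons, and of rice-hit unigenes 27.1% and 19.3%, so the count of 8 in the second is near the background share. An EIN3-like transcription factor, of the family that switches on ethylene response genes, gave 115, 69.6 and 73.1 FPKM with spermidine+NaCl, 345, 269.9 and 310.4 FPKM with NaCl, 92.8, 94.9 and 70.6 FPKM with spermidine, and 77.2, 83.8 and 75.5 FPKM in untreated roots (unigene 66372). Its log2 changes were 1.95 with NaCl against untreated roots (adjusted p = 5.61e-05) and -1.86 with spermidine+NaCl against NaCl (adjusted p = 0.000132). An EIN3-binding F-box protein (unigene 61735), of the family that removes EIN3, was highest with NaCl too, at 198 FPKM with spermidine+NaCl, 383 FPKM with NaCl, 201 FPKM with spermidine and 187 FPKM in untreated roots on average. Unigenes like the kinase CTR1, a repressor of ethylene signalling in Arabidopsis, included 69131, which averaged 15.2 FPKM with NaCl and 27.9 FPKM in untreated roots (log2 change -0.84, adjusted p = 0.000769).

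For the most abundant member of 4 classes, the rice-hit unigenes most like it over the 12 libraries were sought by Pearson's r of log2(FPKM + 1), among 11387 candidates of at least 10 FPKM. These r describe libraries that share their groups. For ACS1 they were an E3 ubiquitin ligase named RMA1H1, chitin-inducible gibberellin-responsive protein 2 and MAPKKK17, each at r = 0.997. For ARD2 unigene 63278 they were nicotianamine synthase 1 (r = 0.978), methylthioribose-1-phosphate isomerase (r = 0.971) and the transcription factor BHLH062 (r = 0.957). For SAM synthetase 2 unigene 55810 they were glycine-rich RNA-binding protein 3 (r = 0.946), ZINC INDUCED FACILITATOR 1 (r = 0.945) and ribose-phosphate pyrophosphokinase 4 (r = 0.942). For ACC oxidase unigene 66914 they were phospholipase A1-II 4, trehalose-phosphate synthase 10 (each at r = 0.965) and the chloride channel CLC-a (r = 0.958).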

How the data were processed

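Poly-A RNA of rice roots was measured in 12 libraries, 3 in each of 4 labelled groups. The authors deposited a table of FPKM for 182689 unigenes with their best protein hits. The submitters' processing notes list CASAVA 1.8, Bowtie2 and RSEM without roles; how the transcripts were assembled is not given in the sources used here. FPKM keeps no read counts, so the depth is unknown. Reads of near-identical unigenes may have been divided among them. No genome was used, and no positions or sequences are given.

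The 4 group means were fitted by limma 3.58.1 (R 4.3.3) to log2(FPKM + 1), with trended empirical Bayes variances, keeping the 65836 unigenes that averaged 1 FPKM or more. All p-values are two-sided and adjusted by the Benjamini-Hochberg method over all unigenes of a comparison, of which there were 6. This scale understates the changes of low unigenes. Errors are SD for means and SE for log2 changes. The steps were tested on simulated data.

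Members and lists were chosen with earlier results of these data known. The rule named the members of the 4 enzymes with at least 5 FPKM in a group, the most abundant of each class and every member called (38 in all). From each list it took up to 2 called unigenes per direction and the most abundant, and the text gives some of these. Sorting by KEGG entry, with unigenes that have none put beside the ACC oxidase homologs, and the final wording of the lists were settled after annotations had been seen. Alternatives were a pseudocount of 0.1, no filter, a minimum of 5 FPKM, median-ratio and quantile scaling, rice-hit unigenes only, only the groups compared, a replicate block and leaving out each library.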

Additional observations from a re-analysis of the deposited data

Results flagged for a closer look

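The interaction (effect of spermidine in the presence of salt less its effect in the absence of salt) was called by limma for 10 members. These were 21.7% of the 46 tested, against 10.9% of all unigenes and 12.1% of rice-hit unigenes. The log2 interaction was -3.61 for ACS1, -1.51 for ACC synthase unigene 66334, 1.08 for ACC synthase unigene 51322 and 1.19 for ACC synthase unigene 53190. It was -1.72 for ACC oxidase unigene 86516, -1.76 for ACC oxidase unigene 87705 and -1.25 for ACC oxidase OsI_18465. It was 0.82 for SAM synthetase 2 unigene 55810, 0.88 for SAM synthetase 2 unigene 62539 and 0.94 for the dioxygenase unigene 44875. The median interaction of all unigenes was 0.16. The calls of 53190, 55810, 66334 and 51322 were lost in 14, 11, 9 and 4 of 19 alternatives, and the others were kept in all. Under median-ratio scaling 2 positive and 6 negative interactions were called. No cause was tested.

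A further 66 unigenes matched the same words but had a best hit outside Oryza and were not among the members. Their FPKM summed to between 19.0 and 128 per library. Of those averaging 2 FPKM or more across the 12 libraries, 3 had a group whose libraries were all above every untreated library. Only higher groups were sought, and the share of all unigenes with such a group was not computed. A SAM synthetase with a best hit to the alga Klebsormidium nitens averaged 6.85 FPKM with spermidine+NaCl and 3.11 FPKM with NaCl, and was at most 0.1 FPKM in untreated roots. A SAM synthase with a best hit to Quercus suber averaged 5.34 FPKM with spermidine+NaCl and 4.42 FPKM with NaCl, and was listed at 0 in every untreated library. In both, spermidine+NaCl replicate 2 was highest, at 15.98 and 13.2 FPKM. Another hit to Klebsormidium nitens averaged 6.31 FPKM with spermidine, and stood at 1.57, 2.27 and 0.4 FPKM in untreated roots. All 3 reached the 2 FPKM minimum only through the groups in which they were high. Their separation from untreated roots is therefore no support for a difference. Lower groups occurred too. Another hit to Quercus suber stood at 22.4, 7.56 and 7.41 FPKM in untreated roots and at most 3.4 FPKM in any other library. It passed the minimum only through the untreated libraries. A hit to Artemisia annua gave 0.76, 0.3 and 0.8 FPKM with spermidine, below the 10.7, 1.12 and 1.64 FPKM of untreated roots. Whether these transcripts are from rice was not tested.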

How the results depend on the processing

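No log2 change of a named member that was called reversed in any alternative. Of 64 such calls, 27 were kept in every alternative and 37 were lost in at least 1, and 34 uncalled changes were called in at least 1. The count of members called moved by more than 1.5 times when only the groups compared were fitted: to 9 for spermidine+NaCl against NaCl, 2 for spermidine+NaCl against spermidine and 0 for spermidine+NaCl against untreated roots, where fewer libraries estimate the spread. With no filter on low values, 1 member was called for spermidine against untreated roots. Over the tested rice-hit unigenes, deviations of same-numbered libraries from their group means were at most weakly correlated (18 pairs, r from -0.13 to 0.11). Every pair of replicates 1 had a positive r, from 0.0056 to 0.11. Single members can differ from this, as ACC oxidase unigenes 85895 and 86259 were highest in replicate 1 of every group. With the replicate block 8 members were called for spermidine+NaCl against spermidine, 5 higher and 3 lower.

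Leaving out each library in turn gave 17 to 24 members for NaCl against untreated roots, 0 to 1 for spermidine against untreated roots, 11 to 20 for spermidine+NaCl against NaCl, 0 to 7 for spermidine+NaCl against untreated roots, 3 to 7 for spermidine+NaCl against spermidine and 7 to 13 for the interaction. The count for spermidine+NaCl against NaCl was 11 without NaCl replicate 1 or 3 or spermidine+NaCl replicate 3. Against untreated roots it was 0 without spermidine+NaCl replicate 2, 1 without spermidine+NaCl replicate 3 or untreated replicate 1, and 3 without untreated replicate 2. Against spermidine it was 3 without spermidine replicate 1 or spermidine+NaCl replicate 2 or 3. The 1 call of spermidine against untreated roots came without untreated replicate 1. FPKM carries no depth, 3 libraries per group limit what can be called, and causes of these shifts were not tested.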
